A study of Mus musculus with 3 samples.

Results

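The comparison of Th17 with Th0 asks what cells grown with IL-6 and TGFβ express that differs from cells activated without added cytokine. It uses 2 of the 3 arrays of the series, those titled Th17 and Th0, and takes the deposited log value of every probe in Th17 minus that in Th0, averaged over the probes of a gene, for all 19938 genes that have a probe with 1 gene symbol. All 3 cultures held naive CD4 T cells (CD4+CD25-CD62LhighCD44low) sorted from the spleens of OT-II mice (B6.Cg-Tg(TcraTcrb)425Cbn/J), which carry a transgenic receptor for an ovalbumin peptide. All were stimulated with that peptide on splenic antigen-presenting cells that had been depleted of T cells and came from Il23a-/- mice, in RPMI with fetal calf serum. Th17 cells received IL-6 + TGFβ, Th0 cells no cytokine, and the third culture, Th22, IL-6 alone. Th22 values are given beside those of some genes and enter no count of differences between Th17 and Th0 in the deposited values. Counts and folds after quantile normalization do depend on Th22, because all 3 arrays were normalized together. T cells were purified on magnetic columns (MACS) after 60 hours, and the sources used here do not give the number or age of the mice. The Th0 and Th17 conditions had 1 array each, so every difference is a size without a test, an error or a replicate check.

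IL-6 signals through its receptor and gp130 to the transcription factor STAT3, and TGFβ signals through receptor kinases to Smad proteins. Acting together on a newly activated CD4 T cell, they direct it to the Th17 fate, whose cells make IL-17A and IL-17F and defend epithelial surfaces against fungi and extracellular bacteria. TGFβ is also known in T cells for restraining the Th1, Th2 and cytotoxic programs and for controlling adhesion and matrix genes in many tissues.

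The deposited values are centred, each probe being given relative to its own median over the 3 arrays, so they show differences and not levels. A value of 0 marks the middle array, and whether a gene was detected cannot be read. The log base is not given in the sources used here, and folds assume base 2. Of the 19938 genes, 9312 (46.7%) had exactly the same value in Th0 and Th17, and the median over all genes was 0. In bulk RNA, fewer cells of a type and less RNA per cell cannot be told apart.

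In Th17, 293 genes (1.47%) were higher than in Th0 by a factor of 2 or more, and 311 (1.56%) were lower. These shares are the background for the family counts, also where no share is printed beside a count. The only measure of technical spread is that between probes of the same gene. Its SD, from the first 2 probes of each of 999 genes, was 0.14 log2, and it is not a replicate error. It can understate the spread for genes past 2-fold. Of the 22 such genes with several probes, 4 had probes more than 1 log2 apart. The differences reached further on the lower side: a difference of 32-fold or more was seen in 8 lower and 4 higher genes, and one of 4-fold or more in 98 lower and 86 higher genes. Cytokine genes served as a check of the Th17 label. Il17a stood at -2.62 in Th0, 0 in Th22 and 1.99 in Th17, and Il17f at -4.86 in Th0, 0 in Th22 and 1.39 in Th17, each relative to its median in log2. Th17 was the highest and Th0 the lowest array for both. Just inside the threshold lay Car5b (2.00-fold) and Axl (2.00-fold) on the higher side and Tlcd2 (2.00-fold) and Kdelr3 (2.01-fold) on the lower side. Just outside lay Hdac4 (2.00-fold) and Dsel (1.99-fold), and B930095G15Rik and Enc1 (both 2.00-fold after rounding). Forcing the same distribution on the 3 arrays by quantile normalization brought 201 of the 604 differences within 2-fold, and made 148 of the 604 folds smaller by over 1.5 times and none larger by that much. Some folds grew by less than that, among them Efna5 (from 2.97-fold to 3.75-fold) and Slc1a2 (from 2.16-fold to 2.72-fold), and some lists gained a member past 2-fold. Differences of 32-fold or more were then left in 2 lower and 1 higher gene, and those of 4-fold or more in 57 lower and 48 higher genes. Paragraphs on families end with the genes brought within 2-fold or made over 1.5 times smaller, and folds that grew are not listed there. In this paragraph, Car5b, Axl, Tlcd2 and Kdelr3 lay within 2-fold. Il17a (14.7-fold) stayed past 2-fold, with a fold over 1.5 times smaller.

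**Figure D1:**
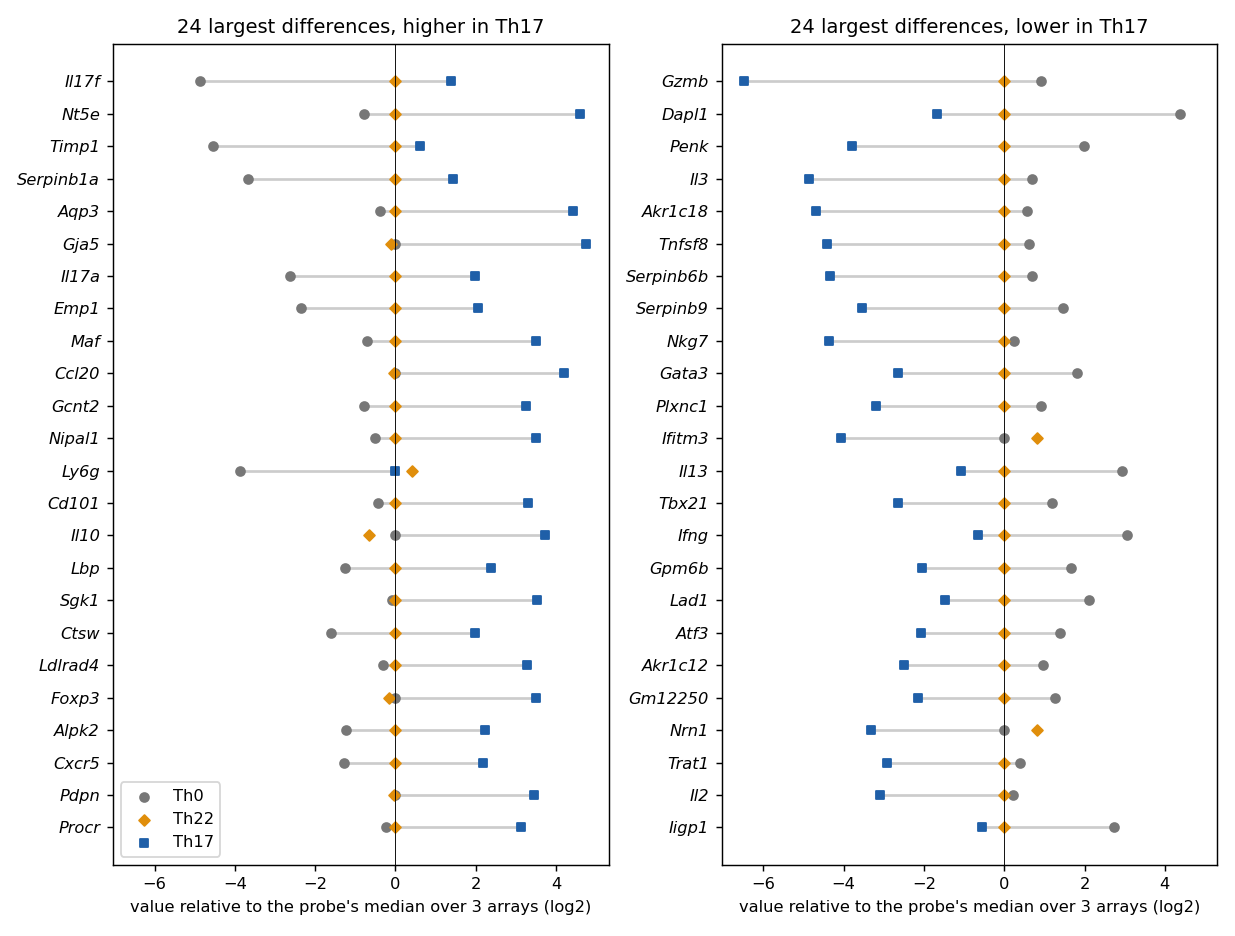
Values of the 24 genes with the largest differences in each direction on the Th0, Th22 and Th17 arrays, as log2 relative to each probe's median over the 3 arrays, averaged over the probes of a gene. Grey lines join Th0 and Th17; the Th22 array was the middle one for most of these genes, while Ly6g, Il10, Ifitm3 and Nrn1 are among those where it was not.

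Several genes of secreted and membrane-bound regulators of proteolysis were higher in Th17. The list of ADAM, ADAMTS and MMP metalloproteases and their TIMP inhibitors had 3 of 90 measured members at least 2-fold higher and 0 lower. The higher share was 3.33%, against 1.47% of all genes. Timp1, an inhibitor of matrix metalloproteases, stood at -4.55 in Th0, 0 in Th22 and 0.62 in Th17. Its Th0 value was far below the other arrays, and Th22 lay nearer to Th17. Timp2, a second inhibitor of the family, stood at -0.0043 in Th0, 0 in Th22 and 1.80 in Th17, so that Th0 and Th22 were nearly equal and Th17 alone was high. Adam19, a membrane-bound metalloprotease of the ADAM family, was 7.21-fold higher. Syn1, the gene of synapsin I, overlaps Timp1 in the gene table and was 3.13-fold higher, a log2 difference of 1.65 against 5.17 for Timp1. Among 100 matrix genes Crispld2 (8.42-fold) and Thbs1, which encodes thrombospondin 1, an activator of latent TGFβ (3.08-fold), were higher and 0 were lower. The 2 of 100 are near the background share. Each gene named here stayed past 2-fold after quantile normalization. The metalloprotease list then also had 1 member at least 2-fold lower. Timp1 (20.3-fold) stayed past 2-fold, with a fold over 1.5 times smaller.

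Intracellular and secreted proteases and their inhibitors differed in both directions. Of 34 cathepsins, legumain and cystatins, 4 (11.8%) were higher and 1 (2.94%) was lower, against 1.47% and 1.56% of all genes. Ctsw, the gene of cathepsin W, was 12.1-fold higher, Ctsc, whose product activates granzyme precursors, 2.84-fold, Ctsf 2.05-fold and the legumain gene Lgmn 2.04-fold. Cst7, the gene of cystatin F, an inhibitor of cathepsin C, was the member on the lower side (2.26-fold). The serpins divided evenly, with 2 of 48 higher and 2 lower (4.17% each way). All 4 belong to clade B, most of whose members stay inside the cell. Serpinb1a, an inhibitor of neutrophil proteases, stood at -3.68 in Th0, 0 in Th22 and 1.42 in Th17, lowest in Th0. Serpinb9, whose product blocks granzyme B, stood at 1.47 in Th0, 0 in Th22 and -3.56 in Th17, and Serpinb6b was 32.6-fold lower. Serpinb5 was 4.10-fold higher in Th17 but 17.4-fold higher in Th22. Serpinb6b and Serpinb9 have close relatives in the genome, and the share of their signal that comes from each is uncertain. The list of granzymes and trypsin-like proteases also holds the receptors and cofactors of coagulation proteases. It gave 3 of 105 higher (2.86%) and 5 lower (4.76%). On the higher side were the endothelial protein C receptor gene Procr (10.3-fold), the urokinase gene Plau (3.96-fold) and Prss46 (2.73-fold). The lower side held the granzyme genes Gzmb (168-fold), Gzma (7.50-fold) and Gzmc (2.50-fold), Pros1, which encodes the anticoagulant protein S (5.71-fold), and the thrombin receptor family gene F2rl2 (3.43-fold). After quantile normalization Ctsf, Lgmn and Cst7 lay within 2-fold. Gzmb (69.3-fold), Serpinb1a (15.4-fold), Serpinb6b (12.9-fold), Serpinb9, Procr, Gzma and Plau stayed past 2-fold, with a fold over 1.5 times smaller.

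Some water channel genes and a single gap junction gene were past 2-fold on the higher side. The list of aquaporins, connexins and pannexins had 4 of 30 measured members at least 2-fold higher and 0 lower, a share of 13.3% against 1.47% of all genes. Aqp3, a channel for water and glycerol, stood at -0.38 in Th0, 0 in Th22 and 4.42 in Th17, and Gja5, the gene of connexin 40, at 0 in Th0, -0.10 in Th22 and 4.75 in Th17. In both, Th0 and Th22 differed little and Th17 stood apart. The glycerol-permeable channels Aqp9 (4.85-fold) and Aqp7 (2.34-fold) were also higher, and Aqp7 and Aqp3 are neighbours in the gene table. The other 26 members lay within 2-fold, 19 of them equal in Th0 and Th17. Of all 30, 7 were higher and 4 lower by some amount. After quantile normalization Aqp7 lay within 2-fold. Aqp3 (14.9-fold) and Aqp9 (3.10-fold) stayed past 2-fold, with a fold over 1.5 times smaller.

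Transporters as a class did not stand out from other genes. Of 364 solute carriers, 7 (1.92%) were higher and 5 (1.37%) lower, both near the background. The higher members were Slc4a11 (5.19-fold), the choline transporter gene Slc44a1 (4.36-fold), the zinc importer gene Slc39a8 (3.31-fold), the bicarbonate transporter gene Slc4a8 (3.11-fold), the folate transporter gene Slc46a1 (2.46-fold), the aromatic amino acid transporter gene Slc16a10 (2.23-fold) and the mitochondrial ornithine carrier gene Slc25a15 (2.16-fold). The lower ones were Slc17a6, which encodes a vesicular glutamate transporter (7.05-fold), Slc35d3 (4.03-fold), Slc26a10 (2.40-fold), the glutamate transporter gene Slc1a2 (2.16-fold) and the hexose transporter gene Slc2a6 (2.06-fold). Slc17a6 stood at 0.59 in Th0, 0 in Th22 and -2.22 in Th17, with Th17 far below the other arrays. The ABC transporter list had 3 of 48 members lower (6.25%, against 1.56% of all genes) and 0 higher. They were Abcg3 (3.02-fold) and the adjacent multidrug pump genes Abcb1b (2.80-fold) and Abcb1a (2.54-fold). The Abcb1 genes are close relatives, so their signals may overlap. Among ion pumps Atp1b1, the beta subunit of the sodium-potassium ATPase, was 5.91-fold higher and the flippase gene Atp11a 2.23-fold lower. Ion channel genes were few: of 92 potassium channel genes Kcnip2 (2.45-fold) was higher, and Kcnmb1 (2.45-fold) and Kcna3, the voltage-gated channel Kv1.3 of T cells (2.27-fold), were lower. None of 36 chloride channel genes passed 2-fold. In the calcium and TRP list the single gene past the threshold was Trpc4ap (2.09-fold), which the symbol pattern caught and which does not encode a channel. After quantile normalization Slc46a1, Slc16a10, Slc25a15, Slc26a10, Kcnip2, Kcna3 and Trpc4ap lay within 2-fold. The solute carrier list then had 4 higher and 5 lower members. Slc17a6 (4.30-fold), Atp1b1 (3.59-fold) and Slc35d3 (2.30-fold) stayed past 2-fold, with a fold over 1.5 times smaller.

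Glycosyltransferases had members past the threshold on both sides. Enzymes that build glycans, proteoglycans and sialic acid caps had 8 measured members at least 2-fold higher and 4 lower, shares of 5.97% and 2.99%. Gcnt2, which branches polylactosamine chains, stood at -0.79 in Th0, 0 in Th22 and 3.25 in Th17. Th17 alone was high, and Th22 lay nearer to Th0. Gcnt1, which makes core 2 O-glycans that carry selectin ligands, was 3.61-fold higher and Fut7, the fucosyltransferase that completes those ligands, 2.12-fold. B3gnt8 (5.29-fold), the heparan sulfate polymerase gene Ext1 (3.77-fold), B4galt1 (2.28-fold), Mgat5, which branches N-glycans (2.05-fold), and B4galnt4 (2.04-fold) were also higher. The lower members were the polysialyltransferase gene St8sia4 (2.84-fold), B3gnt5 (2.51-fold), the O-glycan sialyltransferase gene St3gal1 (2.30-fold) and Galnt3 (2.05-fold). The 2 probes of St3gal1 differed by 2.40 log2, the widest gap among the 22 genes past 2-fold with several probes. After quantile normalization Fut7, B4galt1, Mgat5, B4galnt4, St8sia4, B3gnt5, St3gal1 and Galnt3 lay within 2-fold, which left 4 higher and 1 lower. Gcnt2 (9.72-fold) stayed past 2-fold, with a fold over 1.5 times smaller.

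**Figure D2:**
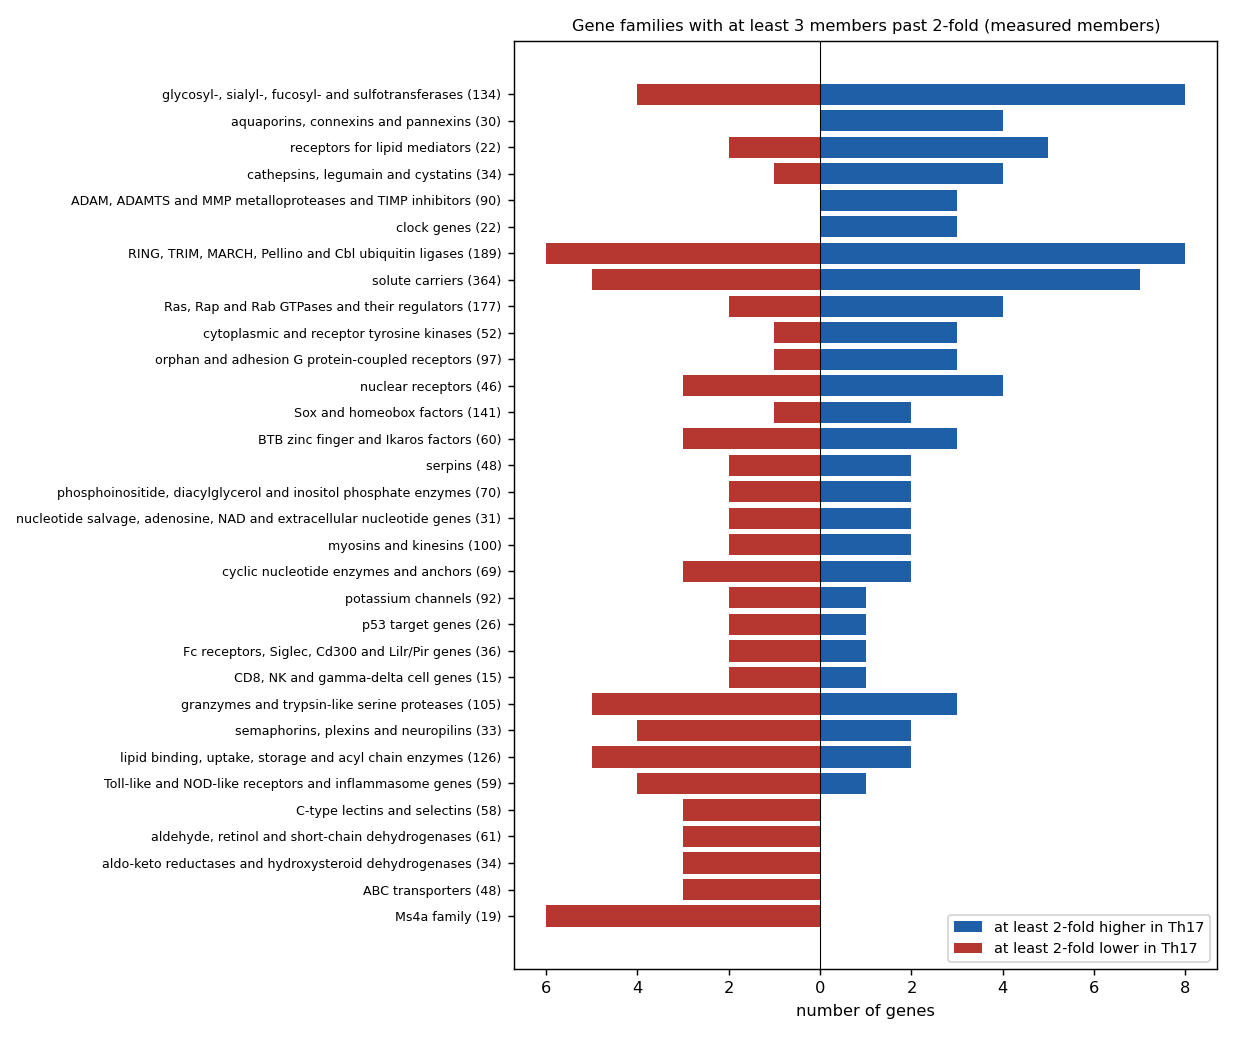
Number of genes at least 2-fold higher (blue, to the right) and lower (red, to the left) in Th17 than in Th0, for families described here with at least 3 members past that size; the number of measured members follows each name. Aquaporins and connexins, metalloproteases and clock genes lie on the higher side alone, and Ms4a, aldo-keto reductase, aldehyde and retinol dehydrogenase, ABC transporter and C-type lectin genes on the lower side alone. The C-type lectin bar includes 2 selenium-binding protein genes.

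Receptors for lipid mediators held the largest share of higher members among the lists. Of 22 measured, 5 (22.7%) were higher and 2 (9.09%) lower. Cysltr1, a receptor for cysteinyl leukotrienes, stood at -1.99 in Th0, 0 in Th22 and 0.71 in Th17, and its relative Cysltr2 at 0 in Th0, 0.48 in Th22 and -1.86 in Th17. The paired receptors thus differed in opposite directions, Cysltr1 being higher in Th17 by 6.50-fold and Cysltr2 lower by 3.62-fold. The lysophosphatidic acid receptor gene Lpar6 (5.23-fold), the leukotriene B4 receptor gene Ltb4r1 (4.34-fold), and S1pr3 (3.13-fold) and S1pr1 (2.78-fold), receptors for sphingosine 1-phosphate, were higher, and the prostacyclin receptor gene Ptgir was lower (3.18-fold). Orphan and adhesion receptors gave 3 of 97 higher (3.09%) and 1 lower (1.03%). The higher ones were Gpr15, a homing receptor of the colon (5.84-fold), Gpr83 (2.41-fold) and Adgrg1 (2.07-fold). The lower one was Gpr174, a receptor for lysophosphatidylserine (3.66-fold). None of 90 receptors for amines, acetylcholine, glutamate and opioids passed 2-fold, and 69 of them were equal in Th0 and Th17. None of 72 phospholipase and eicosanoid enzyme genes did either. After quantile normalization Gpr83 and Adgrg1 lay within 2-fold. Gpr15 (3.51-fold) and Cysltr2 (2.11-fold) stayed past 2-fold, with a fold over 1.5 times smaller.

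Lipid, steroid and retinoid genes past 2-fold lay on both sides, and each of their lists had a median of 0. The aldo-keto reductases and hydroxysteroid dehydrogenases had 3 of 34 members lower (8.82%, against 1.56% of all genes) and 0 higher, and all 3 lie in the Akr1c cluster. Akr1c18, which inactivates progesterone, stood at 0.57 in Th0, 0 in Th22 and -4.68 in Th17; Akr1c12 was 10.9-fold lower and Akr1c13 6.07-fold lower. Th17 was lowest for each of them. They are close relatives, so the signal of each is uncertain. Cyp11a1, which starts steroid synthesis from cholesterol, was 3.80-fold higher, and with Cyp2d22 (2.37-fold) it was one of 2 of 87 cytochrome P450 genes past the threshold. The list of aldehyde, retinol and short-chain dehydrogenases also holds retinoid carriers. On it 3 of 61 (4.92%) were at least 2-fold lower and 0 higher, while 13 were higher and 18 lower by some amount. The 3 were Crabp2, a carrier of retinoic acid (8.10-fold), Stra6, the receptor for retinol-binding protein (4.19-fold), and the alcohol dehydrogenase gene Adh1 (2.20-fold); the highest member, the retinol dehydrogenase gene Rdh12, was 1.86-fold higher. Rara, the retinoic acid receptor, was 2.24-fold higher. In the lipid handling list 5 of 126 (3.97%) were lower. The long-chain acyl-CoA synthetase gene Acsl6 (3.26-fold), the endothelial lipase gene Lipg (3.03-fold) and the desaturase genes Scd1 (2.71-fold) and Fads2 (2.01-fold) work on acyl chains, while Apold1 (2.54-fold) was caught by its symbol. On the higher side Dgat1 (2.04-fold) makes triglycerides, and Ldlrad4 (12.1-fold) encodes an inhibitor of TGFβ signalling that shares a receptor-class domain with the LDL receptor. Acsbg1, another acyl-CoA synthetase gene, is not on the list and was 6.54-fold higher. After quantile normalization Cyp2d22, Adh1, Lipg, Fads2 and Apold1 lay within 2-fold. Akr1c18 (16.2-fold), Ldlrad4 (7.23-fold), Akr1c12 (6.47-fold), Acsbg1 and Acsl6 stayed past 2-fold, with a fold over 1.5 times smaller.

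Cholesterol synthesis genes showed a small difference in one direction and no large one. None of 20 passed 2-fold, but 19 were lower in Th17 by some amount and 1, Sc5d, was higher, with a median of -0.33 log2 and a range from -0.95 (Lss) to 0.25. Across all genes 5599 of 19938 were lower by some amount and 5027 higher. After quantile normalization the same counts were 19 and 1, with a median of -0.21 log2. Respiratory chain and ATP synthase genes showed the same direction at a smaller size, with 69 of 91 lower by some amount, 11 higher, 0 past 2-fold and a median of -0.10 log2. Cytosolic ribosomal protein genes did not: 38 of 71 were higher by some amount and 13 lower, with a median of 0.0052 log2, and that list includes S6 kinase genes of similar name. With 1 array a side, shifts of these sizes cannot be told apart from a difference between the arrays.

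Small-molecule metabolism had few members past the threshold. Cth, which makes cysteine from cystathionine, stood at 0.63 in Th0, 0 in Th22 and -1.68 in Th17 and was the only one of 20 serine and one-carbon genes past 2-fold. Gatm, the first enzyme of creatine synthesis, was 3.55-fold higher, the only one of 21 arginine and polyamine genes. Among 31 nucleotide genes the enzymes that turn extracellular ATP into adenosine were higher, Nt5e (CD73) standing at -0.78 in Th0, 0 in Th22 and 4.60 in Th17 and Entpd1 (CD39) being 4.73-fold higher, while Upp1 (2.27-fold) and Xdh (2.25-fold), which act in pyrimidine salvage and purine breakdown, were lower. Upp1 was 2.12-fold higher in Th22 than in Th0, the opposite direction. Of 28 glycolysis genes Eno3 was 2.26-fold lower and 0 were higher. Plod2, a collagen-modifying enzyme, was 3.95-fold higher and Epas1, the gene of the hypoxia-inducible factor HIF-2α, 6.43-fold lower, 2 of 25 hypoxia-inducible genes outside glycolysis. Epas1 stood at 2.57 in Th0, 0 in Th22 and -0.12 in Th17, so Th22 and Th17 were both far below Th0. Among 26 p53 target genes Trp53inp1 was 3.14-fold higher, and Plk2 (3.98-fold) and Phlda3 (2.29-fold) were lower. The glutathione transferase gene Gstt3 was 2.43-fold lower, the only one of 73 glutathione and redox genes past 2-fold. After quantile normalization Upp1, Phlda3 and Gstt3 lay within 2-fold. The serine and one-carbon list and the glycolysis list then had 2 lower members each. Nt5e (21.7-fold) and Entpd1 (3.14-fold) stayed past 2-fold, with a fold over 1.5 times smaller.

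Guidance molecules, first known from the growth of nerve fibres, differed both ways. Semaphorins, plexins and neuropilins had 2 of 33 higher (6.06%) and 4 lower (12.1%), against 1.47% and 1.56% of all genes. Plxnc1, the receptor of semaphorin 7A, stood at 0.91 in Th0, 0 in Th22 and -3.19 in Th17, and its ligand gene Sema7a was 2.27-fold higher. The receptor and its ligand thus differed in opposite directions. Sema6d (5.12-fold) was higher, and Sema4c (3.42-fold), Plxnd1 (2.75-fold) and Sema4b (2.09-fold) were lower. Other genes of this kind past 2-fold were Efna5, an ephrin (2.97-fold lower), and Lingo4 (2.13-fold higher). Nrn1, which encodes neuritin, stood at 0 in Th0, 0.81 in Th22 and -3.32 in Th17, lowest in Th17 and highest in Th22. Neuropeptide and peptide hormone genes gave 2 of 47 lower (4.26%). They were the enkephalin precursor gene Penk, at 1.98 in Th0, 0 in Th22 and -3.80 in Th17, and the relaxin family gene Insl6 (3.52-fold). Other genes known from synapses were noticed after their values were seen, belong to no list of their own and lay on both sides: the GABA-synthesising enzyme gene Gad2 (3.37-fold) and the vesicle protein genes Syp (3.56-fold) and Syn1 were higher, and C1ql3 (3.36-fold), Nrgn (2.65-fold) and Cnih2 (2.21-fold) lower. After quantile normalization Plxnd1, Lingo4 and Cnih2 lay within 2-fold. Penk (25.7-fold), Plxnc1 (9.03-fold), Nrn1 (4.24-fold) and Sema6d stayed past 2-fold, with a fold over 1.5 times smaller.

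Regulators of membrane traffic and motor proteins had members past the threshold on both sides. The Ras, Rap and Rab list was near the background, with 4 of 177 higher and 2 lower. Rragd, a GTPase of amino acid sensing (2.47-fold), Rasgef1b (2.33-fold), Rasa3 (2.26-fold) and Tbc1d14 (2.14-fold) were higher, and Rab19 (4.77-fold) and the exchange factor gene Rasgrp1 (2.02-fold) lower. The myosin and kinesin list was near the background, with 2 of 100 higher and 2 lower. Myo3b was 7.11-fold higher, Myo5a 2.21-fold higher, Myh10, a nonmuscle myosin heavy chain, 5.88-fold lower and Myl4 2.01-fold lower. The cadherin list (79 genes) had no member past 2-fold, nor did the list of autophagy and lysosome genes (40). None of 76 genes of actin, tubulin and their regulators passed 2-fold, and of 99 keratin genes Krt6b alone did (2.36-fold higher). After quantile normalization Rasgef1b, Rasa3, Tbc1d14, Rasgrp1, Myo5a, Myl4 and Krt6b lay within 2-fold. Myo3b (4.39-fold) and Myh10 (3.39-fold) stayed past 2-fold, with a fold over 1.5 times smaller.

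Signalling enzymes gave short lists. Higher and lower shares were 5.77% and 1.92% of tyrosine kinase, 2.90% and 4.35% of cyclic nucleotide and 2.86% each of phosphoinositide genes. They were 1.85% each of growth factor genes, 6.25% and 0% of Notch genes and 0% and 1.67% of Wnt genes. Over all genes they were 1.47% and 1.56%, so the growth factor and Wnt shares are near the background. Of 52 tyrosine kinase genes the Tec family members Txk (4.35-fold) and Tec (3.59-fold), which act below the T cell receptor, and Axl were higher, and the neurotrophin receptor gene Ntrk3 (2.45-fold) was lower. Txk and Tec are neighbours in the gene table. Ptprj, a receptor phosphatase, was 3.81-fold higher, the only one of 40 tyrosine phosphatases. Cyclic nucleotide genes had Pde2a (2.70-fold) and Akap13 (2.09-fold) higher and Pde1a (2.42-fold), Pde8a (2.35-fold) and Gucy1a1 (2.26-fold) lower, of 69. Of 70 phosphoinositide genes Pik3ap1 (2.56-fold) and the calcium release channel gene Itpr3 (2.55-fold) were higher, and Dgkk, a diacylglycerol kinase (3.92-fold), and Inpp1 (2.24-fold) lower. None of 45 MAP kinase cascade genes and none of 22 RGS genes passed 2-fold. Pdgfb, a platelet-derived growth factor chain, was 3.49-fold higher, and Ccn4 2.83-fold lower, of 54 growth factor genes. In the Notch pathway the target genes Hey1 (3.18-fold) and Nrarp (2.62-fold) were higher, of 32, and in the Wnt list Rnf43 was 2.51-fold lower, of 60. After quantile normalization Axl, Akap13, Gucy1a1, Itpr3, Inpp1, Nrarp and Rnf43 lay within 2-fold. Dgkk (2.18-fold) stayed past 2-fold, with a fold over 1.5 times smaller.

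Transcription factor families had few members past 2-fold. Nuclear receptors had 4 of 46 higher (8.70%) and 3 lower (6.52%). Rora stood at -1.39 in Th0, 0 in Th22 and 1.60 in Th17, and Nr1d1, which encodes the clock repressor Rev-erbα, at 0 in Th0, -0.02 in Th22 and 1.95 in Th17. Both bind related DNA elements with opposite effects on transcription, and both were highest in Th17. The vitamin D receptor gene Vdr (2.29-fold) and Rara were higher, and Nr4a3 (2.59-fold), Nr4a2 (2.23-fold) and Pparg (2.41-fold) were lower. Rora, Nr1d1 and Arntl, which encodes the clock activator BMAL1 (2.06-fold), were the 3 of 22 clock genes past 2-fold (13.6%), all higher. In the bZIP family Maf stood at -0.72 in Th0, 0 in Th22 and 3.51 in Th17 and Atf3, a stress-induced repressor, at 1.38 in Th0, 0 in Th22 and -2.09 in Th17. These were the 2 of 50 past the threshold, in opposite directions. Among 60 BTB zinc finger, Ikaros and PRDM genes, Bcl6 (4.04-fold), Zbtb18 (2.66-fold) and Ikzf3 (2.38-fold) were higher, and Gfi1 (2.87-fold), the Blimp-1 gene Prdm1 (2.18-fold) and Zbtb32 (2.08-fold) lower. After quantile normalization Nr4a2, Pparg, Zbtb18 and Ikzf3 lay within 2-fold. Maf (11.6-fold) and Nr1d1 (2.49-fold) stayed past 2-fold, with a fold over 1.5 times smaller.

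Other factor families had 1 to 3 members past 2-fold. Lhx6, a homeobox gene best known from cortical interneurons, stood at 0 in Th0, 0 in Th22 and 2.34 in Th17, and Cux1 was 3.07-fold higher and Hhex 2.08-fold lower, of 141 Sox and homeobox genes. Among 44 forkhead genes Foxp3 (11.3-fold) and Foxf2 (2.84-fold) were higher. Klf10, an early TGFβ-induced gene, was 3.34-fold higher, the only one of 25 KLF and Sp genes, and Elk1 2.30-fold higher, the only one of 25 ETS genes. Ahr (4.23-fold) and the Myc antagonist gene Mxd1 (2.15-fold) were the higher ones of 59 helix-loop-helix genes. Of 77 chromatin enzyme genes Chd3, a nucleosome remodeller, was 2.23-fold higher and Tet1, which oxidises methylcytosine, 2.72-fold lower. The histone genes H3c15 (2.34-fold) and H2bc8 (2.05-fold) were lower, and 27 of 39 histone genes were lower by some amount against 3 higher. Their median was only -0.06 log2, and over all genes 5599 were lower and 5027 higher by some amount. With 1 array a side, so small a shift cannot be told apart from a difference between the arrays. The zinc finger genes named Zfp lay below the background in both directions, with 1 of 347 higher (Zfp318, 2.85-fold) and 1 lower (Zfp280b, 2.18-fold). After quantile normalization Chd3, Tet1, H3c15 and H2bc8 lay within 2-fold. Foxp3 (6.90-fold) and Lhx6 stayed past 2-fold, with a fold over 1.5 times smaller.

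The Ms4a family held the highest share of lower members among the lists. These 4-pass membrane proteins modulate receptor signalling, and 6 of 19 measured (31.6%, against 1.56% of all genes) were lower, with 0 higher. Ms4a4b, expressed in T cells, stood at 0.00027 in Th0, 0 in Th22 and -3.03 in Th17, and Ms4a4c at 1.11 in Th0, 0 in Th22 and -1.92 in Th17. Ms4a6d (5.39-fold), Ms4a4a (4.94-fold), Ms4a6b (3.41-fold) and Ms4a6c (2.33-fold) were also lower, and Th17 was the lowest array for each. In Th22 Ms4a4b was almost equal to Th0, and Ms4a6d was 1.51-fold higher. Several are close paralogs, so their signals may overlap. Gimap7 stood at 0 in Th0, 0.26 in Th22 and -2.66 in Th17; the Gimap GTPases are linked to lymphocyte survival, and 1 of 8 passed 2-fold while 6 were lower by some amount (median -0.35 log2). Slamf7 was 5.75-fold lower, the only one of 12 SLAM family genes, 7 of which were lower and 0 higher by some amount. After quantile normalization Ms4a6c lay within 2-fold. Ms4a4b (3.59-fold), Gimap7 (2.97-fold), Slamf7 (2.78-fold), Ms4a6d, Ms4a4a and Ms4a6b stayed past 2-fold, with a fold over 1.5 times smaller.

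Other families of immune surface proteins were split. Ly6g, a gene of the Ly6 cluster, stood at -3.87 in Th0, 0.42 in Th22 and 0 in Th17, lowest in Th0, and Ly6i was 2.26-fold lower. Klrd1, the gene of CD94, was 9.32-fold higher, the only one of 23 Klr genes past 2-fold. The inhibitory receptor genes Lilr4b (9.78-fold) and Lilrb4a (8.07-fold) were lower and Lair1 (2.60-fold) higher, of 36 Fc receptor, Siglec and Lilr genes. Higher members made up 2.78% and lower ones 5.56% of that list, against 1.47% and 1.56% of all genes. Lilr4b and Lilrb4a are near-identical relatives. Lgals7, a galectin gene, stood at 0.67 in Th0, 0 in Th22 and -2.34 in Th17, and Anxa3 was 2.60-fold higher, of 37 galectin, S100 and annexin genes. Clec2i was 3.83-fold lower, the only lectin past 2-fold on its list, the other 2 genes being the selenium-binding protein genes Selenbp1 (2.21-fold) and Selenbp2 (2.14-fold), caught by their symbols. Cd9 (2.62-fold) and Tspan4 (2.21-fold) were lower among 28 tetraspanins. Emp1, a 4-pass membrane protein of the PMP22 family, stood at -2.35 in Th0, 0 in Th22 and 2.07 in Th17, and Nkg7, a granule gene placed in the same superfamily, at 0.23 in Th0, 0 in Th22 and -4.38 in Th17. After quantile normalization Ly6i, Lair1, Anxa3, Selenbp1, Selenbp2, Cd9 and Tspan4 lay within 2-fold. Nkg7 (8.39-fold), Emp1 (12.5-fold), Ly6g (9.42-fold), Lilr4b, Klrd1, Lgals7, Lilrb4a and Clec2i stayed past 2-fold, with a fold over 1.5 times smaller.

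**Figure D3:**
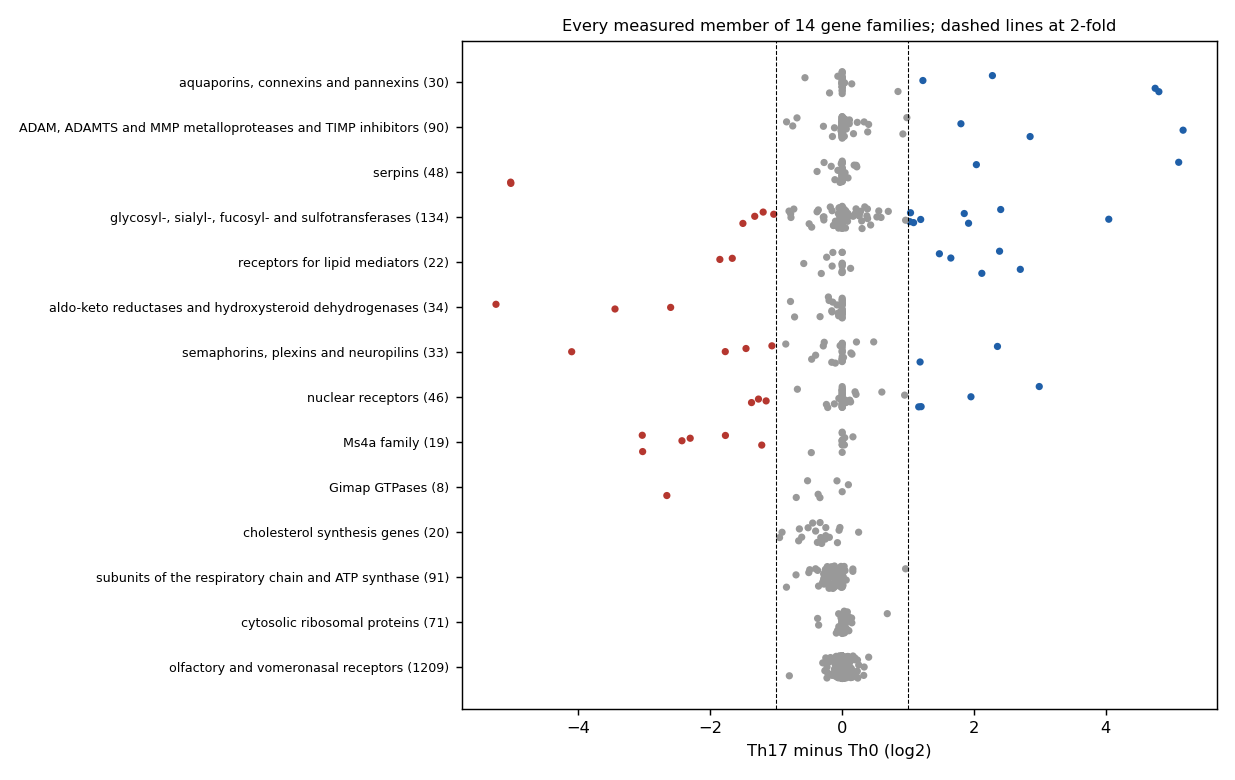
Difference between Th17 and Th0 (log2) for every measured member of 14 gene families, 1 point per gene, with dashed lines at 2-fold; blue points are at least 2-fold higher and red points at least 2-fold lower in Th17. Aquaporin and connexin, lipid mediator receptor and Ms4a genes spread to one or both sides, cholesterol synthesis genes lie mostly between -0.95 and 0 without passing 2-fold, and the 1209 olfactory and vomeronasal receptors stay within 2-fold.

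Ubiquitin ligases and sensors of pathogens had members on both sides. Of 189 ubiquitin ligase genes 8 (4.23%) were higher, led by Peli2 (6.26-fold), a Pellino ligase of Toll-like receptor signalling, and Rnf149 (4.94-fold), with Rnf208 (3.39-fold), Neurl3 (3.16-fold), Rnf180 (2.81-fold), Herc3 (2.73-fold), Rnf125 (2.66-fold) and Znrf1 (2.22-fold). The 6 lower ones were Rnf43 and 5 TRIM genes, a family known for interferon-induced antiviral members. Trim12a was 5.87-fold lower, Trim30d 5.59-fold, Trim30a 4.88-fold, Trim12c 3.50-fold and Trim14 2.26-fold. The Trim12 and Trim30 genes are close copies of each other. Schlafen genes had 2 of 10 lower, Slfn1 (5.43-fold) and Slfn2 (2.45-fold), and 0 higher. Among 59 pattern recognition genes the peptidoglycan-binding protein gene Pglyrp1 (6.66-fold), Irak2 (2.31-fold), Nlrc5, an activator of MHC class I genes (2.07-fold), and Ifi203 (2.02-fold) were lower, and Naip2 (2.04-fold) was higher. The 19 probes of Nlrc5 spanned 1.28 log2. None of 29 genes named H2 passed 2-fold. After quantile normalization Rnf180, Znrf1, Rnf43, Trim14, Irak2 and Naip2 lay within 2-fold. Pglyrp1 (3.10-fold), Peli2 (3.79-fold), Trim12a (3.18-fold), Trim30d, Trim30a and Trim12c stayed past 2-fold, with a fold over 1.5 times smaller.

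Cell type markers bear on the makeup of the cultures, and their part in the results above was not tested. Among 16 T cell genes Trat1, which encodes an adaptor of the T cell receptor complex, stood at 0.39 in Th0, 0 in Th22 and -2.93 in Th17; the other 15 lay within 2-fold, 7 of 16 were higher by some amount and 9 lower, and the median was -0.02 log2. Cd4 was 1.30-fold lower and Cd3e differed by 0.001 log2. Of 34 markers of B, myeloid and dendritic cells Cd72 (2.62-fold) was higher and Ebf1 (2.08-fold) lower, and 32 lay within 2-fold, with a median of 0. Genes known from antigen-presenting cells that are not on that list, chosen after their values were seen, differed more: Cd80 (7.29-fold, its 2 probes 1.14 log2 apart), the chemokine genes Ccl22 (6.58-fold) and Ccl17 (5.60-fold), Cd83 (5.27-fold), the MHC class II chaperone gene Cd74 (3.93-fold) and Ly75 (2.65-fold) were lower, and Cd86 (5.80-fold) higher. Activated T cells can express several of these too, and which cells in the purified cultures did so was not tested. Among 15 markers of CD8, NK and gamma-delta cells Klrd1 was higher, and Gzma and Cd8b1 (2.61-fold) were lower. With centred values a summed marker level cannot be given; 18 of the 34 markers of B, myeloid and dendritic cells were equal on all 3 arrays. The lists of T cell receptor segments (10 genes) and immunoglobulin segments (13) had none past 2-fold. None of the 1209 olfactory and vomeronasal receptor genes, which T cells are not known to use as a family, passed 2-fold. After quantile normalization Cd72, Ebf1 and Cd8b1 lay within 2-fold. Trat1 (4.93-fold), Klrd1 (5.56-fold), Gzma (4.61-fold), Cd80, Ccl22 and Cd86 stayed past 2-fold, with a fold over 1.5 times smaller.

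The genes with the largest differences also included some outside these families. On the higher side were Nipal1, a magnesium transporter gene (16.0-fold), Cd101 (13.3-fold), Lbp, which encodes lipopolysaccharide-binding protein (12.6-fold), and the kinase gene Sgk1 (12.2-fold). Lbp stood at -1.26 in Th0, 0 in Th22 and 2.39 in Th17, with Th22 between the other arrays. Alpk2 (a log2 difference of 3.46), the mucin-like glycoprotein gene Pdpn (3.45 log2), Myof, a membrane repair protein of the ferlin family (10.2-fold), Lgr4, a receptor for R-spondins (10.1-fold), the B cell coactivator gene Pou2af1 (8.67-fold), Ankrd55 (7.82-fold), the carboxypeptidase gene Cpd (7.80-fold) and Smim3 (7.38-fold) followed. Stab1, a scavenger receptor gene best known from macrophages and endothelium (7.29-fold), Kctd14 (7.02-fold) and Gfpt2, an enzyme of hexosamine synthesis (6.58-fold), were also among the 40 highest. Ccl20, a chemokine gene (18.3-fold), and Cxcr5, a receptor for follicle homing (3.46 log2), were the remaining ones. Lgr4 stood at -1.27 in Th0, 0 in Th22 and 2.07 in Th17 and Stab1 at -0.22 in Th0, 0 in Th22 and 2.65 in Th17. With quantile normalization Ccl20 (9.99-fold), Nipal1 (9.75-fold), Cd101 (8.18-fold), Lbp, Sgk1, Pdpn, Pou2af1, Ankrd55, Cpd, Stab1, Kctd14 and Gfpt2 stayed past 2-fold, with a fold over 1.5 times smaller.

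On the lower side Dapl1 stood at 4.37 in Th0, 0 in Th22 and -1.67 in Th17, with a wide step between each pair of arrays. Gpm6b, a proteolipid of neurons and glia, was 13.1-fold lower, and Lad1, an anchoring filament protein of basement membranes, 11.9-fold lower. Ramp3, which modifies the calcitonin-like receptor, was 9.27-fold lower, and the gene of that receptor, Calcrl, which was chosen after its value was seen, 4.24-fold lower. Ramp1, another member of the receptor-modifying family and likewise chosen after its value was seen, was 3.97-fold higher. The relatives Ramp1 and Ramp3 thus differed in opposite directions. Tnip3 (9.22-fold), the integrin gene Itgb3 (8.68-fold), Glipr1 (8.37-fold), the IL-10 receptor gene Il10ra (8.32-fold) and Itih5, a hyaluronan-binding protein gene (7.92-fold), were lower too. Known T-helper genes made up the rest of the 40 lowest, namely Tnfsf8 (32.9-fold), Gata3 (22.0-fold), Il13 (16.3-fold), Tbx21 (14.3-fold), Ifng (13.2-fold) and Fasl (8.49-fold), with the interferon-inducible GTPase gene Iigp1 (9.79-fold). Il10ra was lower while its ligand gene Il10 stood at 0 in Th0, -0.67 in Th22 and 3.73 in Th17. Il2 stood at 0.21 in Th0, 0 in Th22 and -3.10 in Th17, with Th17 alone low. Loci known only by a clone or model name held few members, 4 of 1225 higher and 5 lower, the largest being 1600014C10Rik (4.30-fold higher) and, after Gm12250, Gm4951 (4.88-fold lower), 9330175E14Rik (4.24-fold lower) and D630039A03Rik (4.22-fold lower). With quantile normalization Dapl1 (39.3-fold), Tnfsf8 (14.5-fold), Gata3 (13.2-fold), Tbx21, Il10, Il2, Ramp3, Tnip3, Glipr1, Il10ra, Itih5 and Calcrl stayed past 2-fold, with a fold over 1.5 times smaller. Loci with a clone or model name then had 1 higher and 7 lower members.

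Some of the genes past 2-fold stood next to another that differed the same way. Of 19917 measured genes placed in the gene table, 22 runs of neighbours were higher in Th17, holding 48 of the 293 higher genes (16.4%), and 30 runs were lower, holding 70 of 311 (22.5%). The share to be found in runs under a random gene order was not computed, so these shares cannot be called large or small. Shares without gene copies or overlapping genes were not computed either. Of 19896 pairs of adjacent measured genes both were higher in 26, both lower in 40, and 1 was higher and 1 lower in 4. The 2 longest runs were lower and had 5 genes each, 1 with Abcg3 and the guanylate-binding protein genes Gbp8, Gbp9, Gbp4 and Gbp11, and 1 with 5 of the Ms4a genes. In the first, Gbp4 was 7.63-fold lower, Gbp8 5.91-fold, Gbp11 5.57-fold and Gbp9 3.72-fold. Further lower runs of 3 or more were the Trim12 and Trim30 genes, the cytokine genes Csf2 (6.66-fold) and Il3 (47.1-fold) with Acsl6, and Psmb9 (3.06-fold), Tap1 (2.26-fold) and Psmb8 (2.20-fold), which cut and carry peptides for MHC class I. Other lower neighbours were Casp4 (5.19-fold) and Casp1 (4.54-fold), inflammatory caspase genes, Epsti1 (6.09-fold) and Dnajc15 (3.21-fold), the checkpoint ligand genes Cd274 (3.99-fold) and Pdcd1lg2 (2.24-fold), Btla (3.47-fold) and Cd200 (3.09-fold), Il4 (6.13-fold) and Il13, Il5 (3.73-fold) and Irf1 (2.22-fold, with its 2 probes 1.63 log2 apart), and Pter (4.23-fold) and C1ql3 (3.36-fold). Those made of copies of one gene, such as the Gbp, Ms4a and Trim runs, may share signal, since a probe may also bind a relative. After quantile normalization Psmb8 and Cd200 lay within 2-fold. Il3 (28.3-fold), Epsti1 (2.86-fold), Gbp8 (3.68-fold), Gbp11, Casp4, Casp1, Btla and Acsl6 stayed past 2-fold, with a fold over 1.5 times smaller.

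The 4 runs of 3 genes on the higher side were made of mostly unrelated genes, Txk and Tec being the exception. Casr, the calcium-sensing receptor (2.19-fold), lay beside the costimulatory ligand gene Cd86 (5.80-fold) and Ildr1 (4.42-fold). Cpox, an enzyme of heme synthesis (2.74-fold), lay beside Gpr15 and Cldnd1 (3.28-fold). Nipal1 lay beside Txk and Tec, and Tfap2a (3.78-fold) beside Gcnt2 and Pak1ip1 (2.75-fold). On the Th22 array, set against the same Th0 array, Txk was 3.15-fold higher and each of the other 11 genes lay within 2-fold of Th0. Other higher pairs were Il17a and Il17f, Tmem176a (5.77-fold) and Tmem176b (5.71-fold), Havcr1 (4.30-fold) and Timd2 (3.89-fold), Sema7a and Cyp11a1, Ankrd55 and Il6st (3.37-fold), and Cd101 and Ptgfrn (2.59-fold). The pairs 1600014C10Rik and Plekhf1 (3.91-fold), 4930486L24Rik (2.14-fold) and Ctla2b (6.30-fold), Ccl20 and Daw1 (3.17-fold), Kctd14 and Ints4 (3.65-fold), and Bend6 (2.74-fold) and Dst (4.32-fold) were of the same kind. Of the adjacent pairs in runs 10 overlap each other in the gene table, and for those the assignment of signal is uncertain. Among them are Syn1 with Timp1, Tmem176b with Tmem176a, Bend6 with Dst, and, on the lower side, Pter with C1ql3. After quantile normalization Casr, Cpox, Pak1ip1 and 4930486L24Rik lay within 2-fold. Timp1 (20.3-fold), Il17a (14.7-fold), Ccl20 (9.99-fold), Gcnt2, Nipal1, Cd101, Ankrd55, Kctd14, Ctla2b, Gpr15, Cd86, Tmem176a, Ildr1, Tfap2a and Ints4 stayed past 2-fold, with a fold over 1.5 times smaller.

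**Figure D4:**
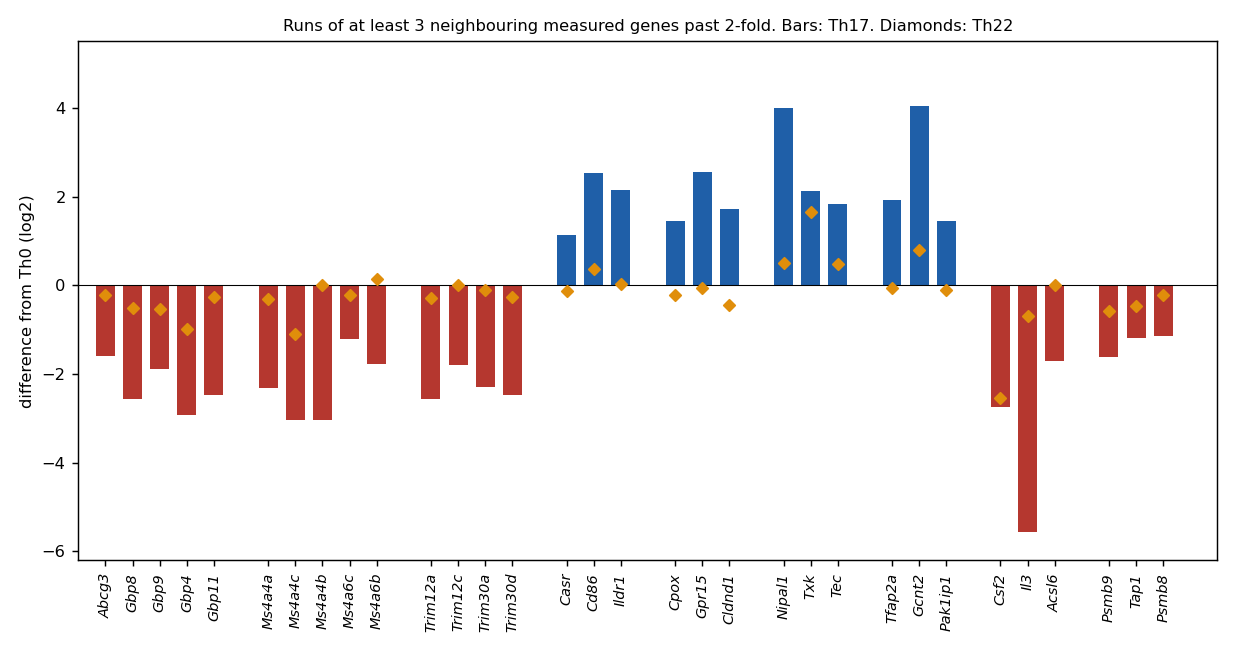
Difference from Th0 (log2) of genes in the 9 runs of at least 3 neighbouring measured genes past 2-fold in the same direction. Bars are Th17 (blue higher, red lower) and diamonds Th22; in the 4 higher runs every Th22 diamond other than that of Txk lies below 1.

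Promoter sequence was set beside the differences as a description. RefSeq promoter windows of build GRCm38.p6, from 250 bases before to 50 after the first listed start of a gene, were at hand for 15614 genes, 229 of those higher and 244 of those lower. The windows of the largest differences in each direction are shown because these genes define the comparison; Penk, the third lowest, has no entry. Capitals mark matches, on either strand, to any of 8 motifs: TTCNNNGAA for STAT factors, AGGTCA for ROR, TGANTCA for AP-1, CAGAC for SMAD, TCACAC for T-box factors, AGATAA for the Gata family, TGCTGA for Maf, and the interferon response motif, which is a pair of GAAA with any 2 bases between. All are 5′ to 3′ on the strand of the gene, and a match is a run of letters, not a known site.
Il17f (chr1:20784221-20784520, minus strand): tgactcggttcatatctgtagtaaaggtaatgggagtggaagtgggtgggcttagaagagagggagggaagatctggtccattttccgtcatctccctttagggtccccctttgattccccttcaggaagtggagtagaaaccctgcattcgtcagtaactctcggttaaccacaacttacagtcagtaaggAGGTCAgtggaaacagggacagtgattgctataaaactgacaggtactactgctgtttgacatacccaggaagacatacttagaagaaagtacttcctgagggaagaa
Nt5e (chr9:88327359-88327658, plus strand): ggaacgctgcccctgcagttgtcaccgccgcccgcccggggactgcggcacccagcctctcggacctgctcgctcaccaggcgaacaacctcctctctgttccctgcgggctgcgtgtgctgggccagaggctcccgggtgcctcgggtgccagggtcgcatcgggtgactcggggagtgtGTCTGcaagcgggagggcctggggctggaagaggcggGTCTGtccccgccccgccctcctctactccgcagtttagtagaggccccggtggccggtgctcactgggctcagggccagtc
Timp1 (chrX:20869916-20870215, plus strand): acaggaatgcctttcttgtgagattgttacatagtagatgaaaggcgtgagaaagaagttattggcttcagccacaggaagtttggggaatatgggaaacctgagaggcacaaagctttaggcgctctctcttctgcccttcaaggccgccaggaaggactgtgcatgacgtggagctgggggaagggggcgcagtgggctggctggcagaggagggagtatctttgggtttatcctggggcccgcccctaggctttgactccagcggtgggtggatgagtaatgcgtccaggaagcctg
Gzmb (chr14:56262285-56262584, minus strand): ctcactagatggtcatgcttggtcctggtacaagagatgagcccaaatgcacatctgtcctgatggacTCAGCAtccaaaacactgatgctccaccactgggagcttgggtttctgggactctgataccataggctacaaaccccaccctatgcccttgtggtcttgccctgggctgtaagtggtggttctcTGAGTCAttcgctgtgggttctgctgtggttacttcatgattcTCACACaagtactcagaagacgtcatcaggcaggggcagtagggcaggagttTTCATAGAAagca
Dapl1 (chr2:59484403-59484702, plus strand): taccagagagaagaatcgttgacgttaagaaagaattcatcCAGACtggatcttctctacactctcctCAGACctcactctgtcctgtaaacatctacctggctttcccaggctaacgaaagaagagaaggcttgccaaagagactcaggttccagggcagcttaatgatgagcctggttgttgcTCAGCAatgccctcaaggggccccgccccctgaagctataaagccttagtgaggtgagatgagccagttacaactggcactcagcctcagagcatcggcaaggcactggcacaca
Il3 (chr11:54267230-54267529, minus strand): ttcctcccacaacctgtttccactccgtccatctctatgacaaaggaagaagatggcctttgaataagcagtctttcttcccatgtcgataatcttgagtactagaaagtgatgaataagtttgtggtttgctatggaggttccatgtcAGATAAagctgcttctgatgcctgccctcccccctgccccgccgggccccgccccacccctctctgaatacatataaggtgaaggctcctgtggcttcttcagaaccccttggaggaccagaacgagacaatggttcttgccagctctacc
The Il17f window has 1 ROR match, 58 bases before the start. The Nt5e window has 2 SMAD matches, 69 and 32 bases before it, and the Timp1 window has none of the 8 motifs. In the Gzmb window there are 4 matches, to the Maf, AP-1, T-box and STAT motifs. The Dapl1 window has 2 SMAD matches and 1 to the Maf motif, and the Il3 window has 1 GATA match.

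Over all windows, 7 of the 8 motifs were found at shares that lay within 4 percentage points of each other in the higher, the lower and all genes. SMAD letters were in 49.8% of the windows of higher genes, 50.4% of lower and 48.6% of all, and STAT letters in 7.86%, 11.1% and 7.83%. ROR letters were in 12.2%, 15.6% and 13.9%. The interferon response motif differed more in size. It was in 24 of 244 windows of lower genes (9.84%), 6 of 229 of higher genes (2.62%) and 3.32% of all. No test was made of these shares, and copies of one gene can share letters. This motif was singled out after the shares were seen, and the stretches of the 6 lower genes with the largest differences that hold it are shown with the motif in capitals, with coordinates on GRCm38.p6.
Serpinb9 (chr13:33004485-33004514, plus strand): ctcctgctacTTTCACTTTCtctaaggacc
Plxnc1 (chr10:94944944-94944973, minus strand): ttcacaatggGAAAGTGAAAcgcacaagcg
Ifitm3 (chr7:141010723-141010752, minus strand): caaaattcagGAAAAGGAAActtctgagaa
Gm12250 (chr11:58183742-58183771, plus strand): cctcggtggcTTTCAGTTTCtatgcctaga
Gbp7 (chr3:142530273-142530302, plus strand): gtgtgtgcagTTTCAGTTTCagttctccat
Ifih1 (chr2:62646206-62646235, minus strand): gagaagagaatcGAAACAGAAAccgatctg
The Ifitm3 and Gm12250 windows hold 2 matches each, of which 1 is shown. Of these, Ifitm3 (16.9-fold lower), Gm12250 (10.6-fold), Gbp7 (9.42-fold) and the RNA sensor gene Ifih1 (7.64-fold) are known as interferon-induced genes, while Plxnc1 is a semaphorin receptor gene and Serpinb9 a granzyme inhibitor gene. With quantile normalization Serpinb9 (16.9-fold), Plxnc1 (9.03-fold), Ifitm3 (5.69-fold) and Ifih1 stayed past 2-fold, with a fold over 1.5 times smaller.

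**Figure D5:**
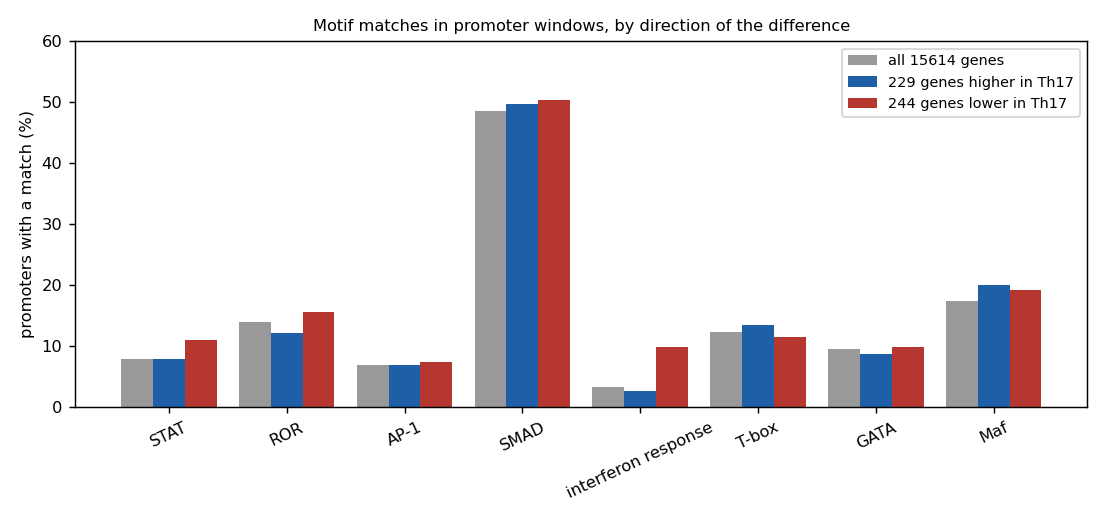
Share of promoter windows with at least 1 match to each of 8 motifs (percent), for all 15614 genes with a window (grey), the 229 genes higher in Th17 (blue) and the 244 lower (red). The interferon response motif is the one whose share among lower genes, 9.84%, is furthest in proportion from the 3.32% of all genes.

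Small RNA genes were nearly all within 2-fold. Of 300 miRNA genes with a probe 1 passed the threshold, Mir181b-1, which stood at -0.04 in Th0, 0 in Th22 and 1.24 in Th17. Whether the probe read the precursor or the mature form cannot be told from the files. Its mature sequence, with the seed (bases 2 to 8) in capitals, is shown because it is the single miRNA gene past 2-fold.
mmu-miR-181b-5p: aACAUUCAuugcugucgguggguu
The same seed is carried by miR-181a, miR-181c and miR-181d, whose genes lay within 2-fold: Mir181b-2 was 1.26-fold higher, Mir181d 1.17-fold higher and Mir181a-2 1.09-fold higher, and Mir181a-1 and Mir181c were equal in Th0 and Th17. Mir181a-1 is the partner of Mir181b-1 in the same cluster. Of the small nucleolar RNA genes Snord118 was 3.79-fold lower, with 2 probes 0.0079 log2 apart. After quantile normalization Mir181b-1 was 1.84-fold higher, within 2-fold.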

How the data were processed

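RNA of purified CD4 T cells was hybridised to Affymetrix arrays, 1 per condition, per the labels' protocols. The deposited values of 28853 probes are on a log scale, taken here as log2, and centred by the authors so that each probe's median over the 3 arrays is 0, as found in the values. For the software, normalization and log base, nothing is given in the sources used here. Of the probes 21789 had 1 gene symbol, 1621 several and 5443 none here; symbols of 21698 were updated through a RefSeq gene table (assembly GRCm38.p6). Differences were computed as Th17 minus Th0 and averaged per gene with Python 3.11.15 and pandas 2.3.3, with no filter, since a centred value gives no level. With 1 array a condition no test was possible, and precision is limited by that number. Counting was tested on simulated data. Motifs were searched as exact letters on both strands in RefSeq promoter windows.

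The families were written as symbol patterns, with the members and lists chosen with earlier results of these data known, so they are descriptions and support nothing by themselves. Genes named are the 40 largest differences in each direction, up to 8 members past 2-fold per reported list and direction, marker genes past 2-fold, the 2 genes nearest the threshold on each side, and neighbours in the gene table that differ the same way. Alternatives were quantile normalization, a shift of columns, a natural log base, other rules for several probes or symbols, and thresholds of 3-fold and 1.5-fold. Columns without a sample numbered 0. Not every list's result is reported here.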

Additional observations from a re-analysis of the deposited data

Results flagged for a closer look

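Probes outside the gene table were not used in any family count, and some of them differed between Th17 and Th0. Among 1621 probes with several gene symbols 10 (0.617%) were at least 2-fold higher in Th17 and 15 (0.925%) lower, the largest differences being 5.35-fold higher and 10.7-fold lower. Among 5443 probes with no gene named here 68 (1.25%) were at least 2-fold higher and 21 (0.386%) lower, reaching 22.3-fold higher and 8.47-fold lower. Over named genes the shares were 1.47% and 1.56%, so the unnamed probes past 2-fold lay mostly on the higher side while named genes divided nearly evenly. What these probes read was not tested.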

How the results depend on the processing

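Of the 604 genes past 2-fold, none turned direction under any of the alternatives tried. In several of them none could turn. A natural log base, other thresholds and leaving out genes with probes over 1 log2 apart keep the sign of each difference. The shift of columns moved differences by 0.0051 log2, too little to turn one past 2-fold. Quantile normalization left 403 of them past 2-fold and gave 202 higher and 218 lower in all (148 folds were over 1.5 times smaller); the cause was not tested. Shifting the columns by the median of the unequal probes gave 294 and 310, and the other rules for probes and symbols gave between 293 and 301 higher and between 307 and 325 lower. If the deposited values were natural logs, 490 genes would be past 2-fold higher and 531 lower, because every difference would then be larger in log2. By construction, a threshold of 3-fold gave 146 higher and 144 lower, and a threshold of 1.5-fold gave 595 and 665. No paired analysis was possible because each condition had 1 array and the labels give no replicate numbers. Without replicates the spread between cultures is unknown, so no difference, whether just past 2-fold or larger, can be set against it. Without levels a low signal cannot be told from a high one.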
